A study of Caenorhabditis elegans with 16 samples.

Results

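The left arm of chromosome II of Caenorhabditis elegans was examined for 2 marks of heterochromatin, H3K9me2 and H3K9me3, in embryos of 2 mutants. The arm was taken as the 500 bp windows of the deposited count table that start between 306001 and 4878501 on II, a stretch of 4.57 Mb. Of its 9146 windows, 8711 held at least 20 counts in all 4 inputs and were kept, out of 191140 windows kept in the whole table. The choice used position and input counts and no ChIP signal.

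Worm chromosomes are holocentric, so heterochromatin is not gathered around 1 centromere. The arms of the autosomes carry more repeats, recombine more often and lie closer to the nuclear envelope than the gene-dense centres. H3K9me2 and H3K9me3 mark silent genes and repeats there, and the chromodomain protein CEC-4 holds H3K9-methylated chromatin at the nuclear periphery. MET-2, a relative of mammalian SETDB1, adds the first methyl groups to H3K9, and trimethylation in embryos depends on the enzyme SET-25.

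The data are ChIP-seq of both marks, each with an input, from early embryos collected before the bean stage. The strains were met-2(n4256) III and set-25(n5021) III, kept at 20 °C, with chromatin taken 60 to 65 h after L1 synchronization. Whole embryos were used, so values average over all their cells, and no wild-type sample is analysed here. The labels list 16 samples, 2 biological replicates in each of 8 groups, while the table holds 1 column of counts per group. The columns may be single replicates or sums, which is not recorded. Only the H3K9me3 ChIP column of met-2 has a name that ends in a separate 1, and it may hold replicate 1 alone. The differences below cannot be set against replicate error, no p-value is given, and the 95% intervals (exact binomial) cover counting error only. No label names the genome build. The windows of II end at 15279323 and those of V at 20919568, which are the chromosome lengths of the ce6 assembly. Positions are given on the build of the table, counted from 1, and no gene is named, since the gene table at hand is of another build (WBcel235).

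The columns held 19732750 to 114221896 counts. On the arm the median window of the H3K9me2 ChIP held 79 counts in set-25 and 132 in met-2. It held 229 in the H3K9me3 ChIP of met-2 and 101 in the one labelled set-25. The inputs held 167 to 553. At these depths the 95% counting interval of a single ChIP window spanned 13.0% to 22.1% to either side, so long runs are firmer than single windows. In the H3K9me3 ChIP with the set-25 label 416 arm windows (4.78%) were empty, and no other library had an empty one. The mutations were checked on III, where both genes lie. A run from 8376501 to 8377500 was absent from both met-2 inputs (0 counts, with 439 and 1225 expected from the flanks). A run from 13287501 to 13289000 was absent from the H3K9me2 input of set-25 (4 counts of 600 expected). The H3K9me3 input labelled set-25 lacked both runs (2 counts in each), and its ChIP held 15 counts of 140 expected in the first but 1431 in the second, 1.39 times the expectation. The H3K9me3 data of set-25 thus go against their label at the mutated genes and are called the library labelled set-25 throughout. At the second run this ChIP and its input also differ from each other, so the pair cannot be taken as matched. All enrichment values of this library divide by that input, except where another input or none is named. The cause was not tested. On the left arm of II no run of 2 or more windows was missing from 1 strain's input and present in the other's.

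In set-25 embryos the left arm of II carried strong H3K9me2 in blocks, most of them between 713001 and 3800500, and little near its inner end. Enrichment is the log2 of ChIP over the input with the same label, both scaled to the column totals (as CPM) with 0.1 CPM added. A window above 1, more than 2-fold, was called enriched. By this measure 2111 windows of the arm (24.2%) were enriched, where all kept windows of the table gave 10.3%. The median window stood at -0.25, which is 1.07 above the library's median over all kept windows (-1.33). The upper quartile was 0.95, and the highest window reached 6.09. Relative to the library's median the arm's share was 52.1%, and at a threshold of 2 it was 11.4%. These are not to be set against the 10.3%, which holds for column totals and a threshold of 1. The matching shares of the whole table are not given here.

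H3K9me2 of set-25 varied most along the arm, with segment medians from -1.88 to 0.97. In consecutive segments of 250 kb from the arm's left end, 12.0% to 13.8% of windows were enriched in the first 3 segments. The next 10 segments, from 1056001 to 3556000, had 20.7% to 49.7%, and the highest was the one from 2806001 to 3056000. The share was then 13.0% in the segment ending at 3806000, 7.55% and 7.66% in the next ones, 4.27% up to 4556000 and 0.61% up to 4806000. The last segment, cut to 73 kb by the arm's end, had no enriched window in 146 and the lowest median. The median inputs of these segments stayed between 0.76 and 1.43 times the table's median.

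**Figure D1:**
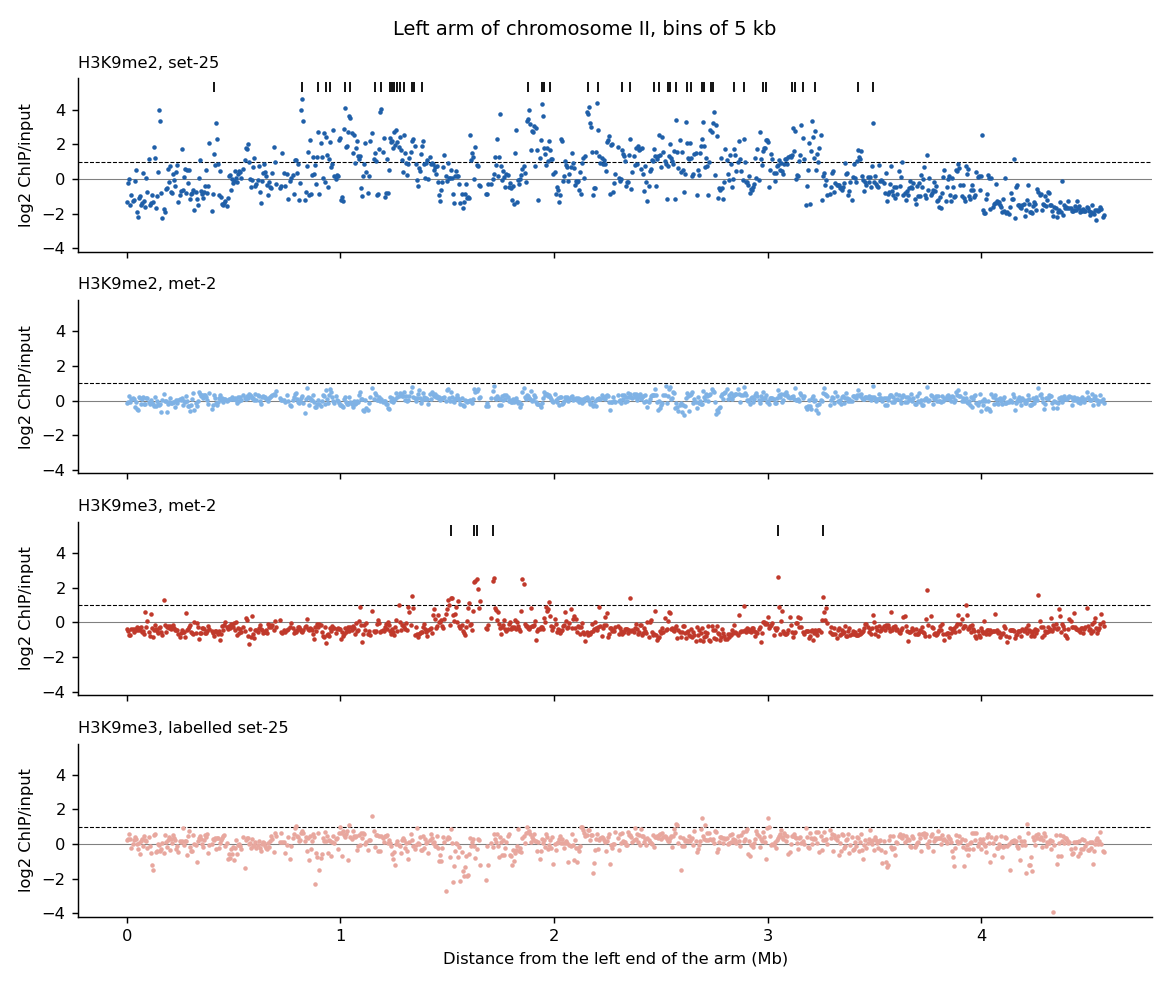
Log2 ratio of ChIP to input in bins of 5 kb along the left arm of chromosome II, against the distance from the arm's left end in Mb, with 1 panel per library. Each dot is 1 bin, the dashed line marks 2-fold enrichment and the black ticks mark domains. H3K9me2 of set-25 reaches 4.59 and has 47 domains, H3K9me3 of met-2 has 6, and the other libraries have none.

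**Figure D2:**
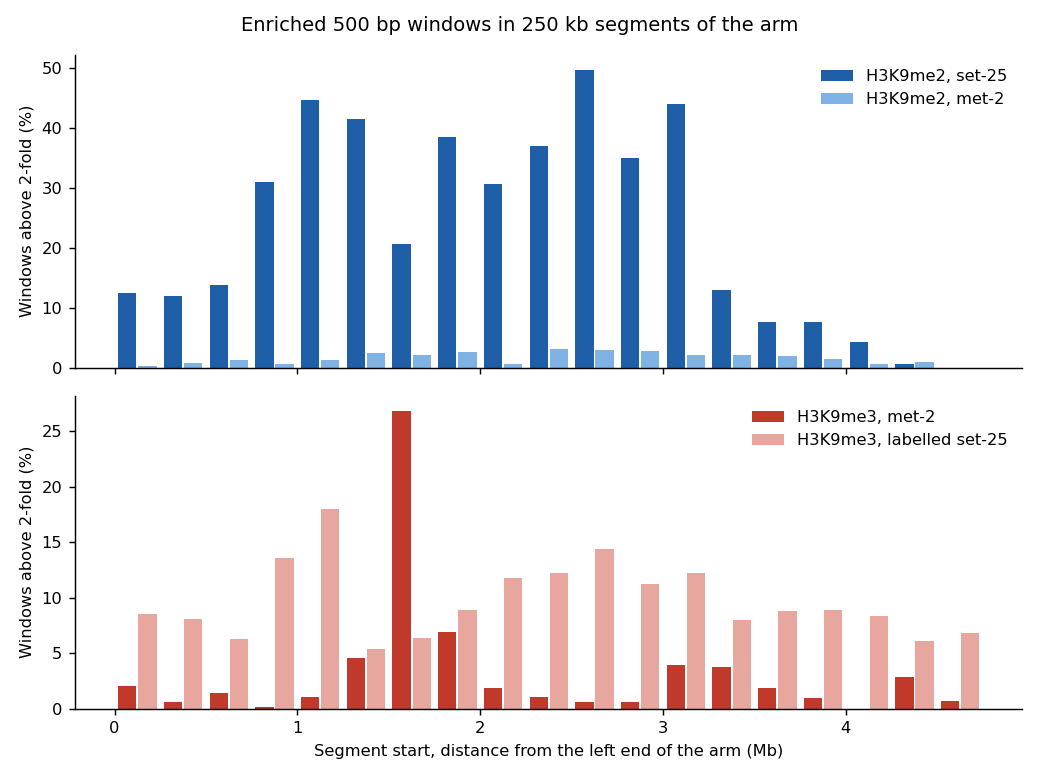
Share of enriched 500 bp windows, in percent, in each 250 kb segment of the arm (the last is 73 kb long), with H3K9me2 above and H3K9me3 below. H3K9me2 of set-25 peaks at 49.7%. H3K9me3 of met-2 peaks at 26.8%, in a segment where H3K9me2 of set-25 stands at 20.7%, against 24.2% over the whole arm.

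The enriched windows of set-25 formed 602 runs, of which 47 were domains, that is at least 10 adjacent windows (5 kb). These domains covered 379 kb, with a median length of 7 kb. The first began at 713001 and the last ended at 3800500. The 3.09 Mb between these points held 91.0% of the arm's enriched windows and 5811 of its 8711 kept windows, of which 33.1% were enriched. Both points were set by the enriched windows themselves, so the 91.0% is a description. Before the first domain 11.6% of windows were enriched, with adjacent 5 kb bins at 3.99 and 3.34 from 456001 to 466000, and after the last one 4.63%. The domains were unevenly spaced, since 11 of the gaps between neighbours were under 5 kb while the median gap was 31.5 kb. These outer limits depend on the settings. The first domain began at 456001 at a threshold of 0.5, with centred libraries or with the input of the other mark, at 432001 where runs could bridge 1 window, at 433001 without a count floor, at 435001 with runs of at least 6 windows, and at 1124001 at a threshold of 2. The last domain ended at 3056000 at a threshold of 2, at 3531000 with the input of the other mark, at 3733000 without over-covered windows and at 4203500 with centred libraries.

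The longest domain, 19.5 kb from 2175501 to 2195000, held 38659 ChIP and 7321 input counts in set-25. Its log2 enrichment for H3K9me2 was 3.59 (3.55 to 3.62) in set-25 and 0.19 (0.13 to 0.26) in met-2. H3K9me3 there was -0.32 in met-2 and 0.85 in the library labelled set-25. Only the first of these 4 values is past 2-fold. The next in length, 18 kb from 3290001 to 3308000, was weaker, at 2.15 (2.12 to 2.19) against 0.15 in met-2. The third, 15.5 kb from 2458001 to 2473500, was the strongest of the 5 longest, at 3.81 (3.77 to 3.85) against 0.05 (-0.01 to 0.12) in met-2. The others ran from 3042501 to 3056500 (3.31 in set-25, 0.50 in met-2) and from 2991501 to 3005000 (2.49 and -0.02). The strongest of all 47 were shorter and reached 4.38, from 1124001 to 1134000, and 4.35, from 2245501 to 2253500.

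Over all 47 domains the median H3K9me2 of set-25, which defined them, was 2.46, with a range from 1.53. In met-2 the same intervals had a median H3K9me2 of 0.30, from -0.13 to 0.87, with 43 above 0 and none past 2-fold. H3K9me3 of met-2 had a median of -0.48, below the library's own median in most, since 16 of the 47 lay above that. In 1 domain it passed 2-fold, at 1.13. The library labelled set-25 had a median of 0.29, with 41 above 0 and 1 past 2-fold.

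Neighbouring windows resembled each other over long distances in this library. Across window pairs of the arm, Pearson's r of H3K9me2 enrichment in set-25 was 0.81 between adjacent windows (8572 pairs), 0.31 at 10 kb and 0.23 at 100 kb. In met-2 the same mark gave 0.46, 0.084 and 0.038. H3K9me3 of met-2 gave 0.63, 0.13 and 0.077, and the library labelled set-25 0.38, 0.057 and 0.0040. These coefficients describe windows of 1 library that share fragments and depth, and a library with less depth or less signal gives lower ones.

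In met-2 embryos H3K9me2 was nearly flat over the arm. Only 142 windows (1.63%) were enriched, where the table as a whole gave 1.34%, and the median window stood at 0.096. Of the enriched windows 69.7% were single ones, the longest run was 1.5 kb and no domain was found. Segment medians lay between -0.06 (306001 to 556000) and 0.24 (1556001 to 1806000). In bins of 5 kb none of 891 passed 2-fold, and the highest reached 0.85. The enriched windows were poorly covered in their own input, with a median of 73 counts against 168 in the other windows, while they were well covered in the H3K9me3 input of met-2, with 1222 against 549. The part of input coverage in these calls was not tested.

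The 3 longest runs of met-2 H3K9me2, each of 1.5 kb, lay from 3799001 to 3800500 (1.38, 1.15 to 1.61), from 3195001 to 3196500 (1.09, 0.84 to 1.34) and from 2724001 to 2725500 (1.18, 0.93 to 1.44). In set-25 the same 3 runs stood higher, at 2.16, 2.67 and 1.48. The pair of next longest, each 1 kb, lay from 1804501 to 1805500 (1.13 in met-2, 0.14 in set-25) and from 4227001 to 4228000 (1.23 in met-2, -1.83 in set-25). With the input of the other mark, 4 of the 5 runs lay below 0 in met-2, at -1.13, -1.26, -1.61 and -0.78, the exception being the one from 1804501.

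H3K9me3 in met-2 embryos was sparse on the arm but gathered in 1 place. Enriched windows numbered 280 (3.21%), against 4.10% in the table as a whole, and the median window (-0.35) lay 0.0050 above that of the whole library. The segment from 1806001 to 2056000 held 113 of the 280 (40.4%). There 26.8% of windows were enriched, against 2.01% in the rest of the arm, and the segment's median of 0.19 was the only one above 0. The segments to either side had 4.57% and 6.87%. The segment from 1806001 was picked as the highest on this share, so the contrast is a description, and 79 of its windows were left out for low input. The segment from 4306001 to 4556000 had no enriched window in 492 and the lowest median, -0.49. The contrast was smaller with the input of the other mark, at 28.0% against 13.6%, and without input, at 22.1% against 5.02%.

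Of the 6 domains of H3K9me3 in met-2, 4 lay in that segment and the others further right. The longest spanned 14 kb from 1937001 to 1951000, with 31590 ChIP and 12984 input counts. Its H3K9me3 was 2.24 (2.21 to 2.27) in met-2 and -0.11 (-0.17 to -0.04) in the library labelled set-25. H3K9me2 there was 1.23 in set-25 and 0.58 in met-2, so it was the only one of the 6 above 2-fold for H3K9me2 of set-25. The strongest, 5.5 kb from 2019001 to 2024500, stood at 2.73 (2.69 to 2.77) in met-2 and 0.28 in the library labelled set-25, where H3K9me2 was 0.27 (set-25) and 0.79 (met-2). The 6.5 kb from 1929501 to 1936000 stood at 2.01, and lie just left of the longest domain, 1 kb apart from it. Outside the segment, the 7 kb from 3351501 to 3358500 reached 2.63 (2.59 to 2.68) and the 6 kb from 3560501 to 3566500 1.46 (1.42 to 1.49).

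This concentration of H3K9me3 fell inside the longest stretch between neighbouring H3K9me2 domains of the arm, by the definition of a domain used here. The 1078.5 kb from the last domain to the arm's end, which also held no domain, are longer. Between 1695001 and 2175500, 480.5 kb long, no run of set-25 H3K9me2 reached 5 kb, and 17.9% of its 870 kept windows were enriched, against 35.7% in the rest of the range from the first to the last domain. The same stretch held 48.9% of the arm's windows enriched for H3K9me3 in met-2. H3K9me2 was not absent there. The 4 adjacent 5 kb bins from 1911001 to 1931000 stood at 2.52, 1.10, 1.52 and 1.24, and the pair from 2046001 to 2056000 at 1.27 and 3.75. In the stretch 35 windows were enriched for both, 25.5% of its H3K9me3 windows. The stretch was picked from the H3K9me2 values, so its low H3K9me2 is a description, and it includes 24.5 kb from 1961501 to 1986000 with almost no reads in any library, which were left out. A window left out also ends a run. Domains numbered 69 where runs could bridge 1 window, 95 with runs of at least 6 windows and 123 with centred libraries. Whether the stretch stays free of domains, or the longest, under these settings is not given here.

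**Figure D3:**
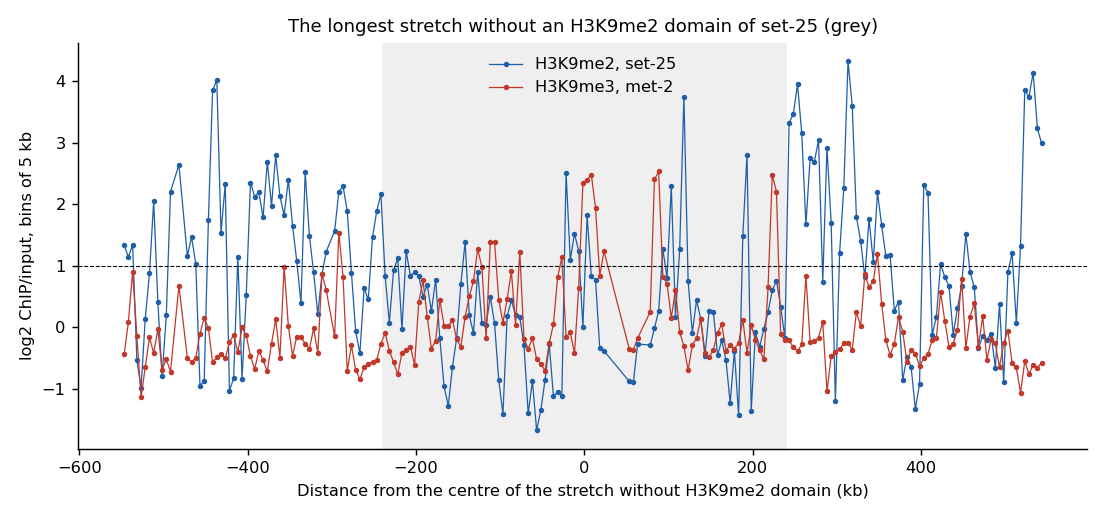
Log2 ratio of ChIP to input in bins of 5 kb, against the distance in kb from the centre of the grey stretch (480.5 kb). This is the longest stretch between neighbouring H3K9me2 domains of set-25 by the definition of a domain used here, and the title's wording is meant in that sense. H3K9me3 of met-2 reaches 2.54 inside the stretch, where H3K9me2 of set-25 forms no domain, and the line without dots right of the centre crosses windows that were left out.

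The H3K9me3 library labelled set-25 scattered its enriched windows over the whole arm. They numbered 855 (9.82%), where the table as a whole gave 6.81%, and 57.4% of them stood alone. The longest run was 4 kb and no domain was found, and in bins of 5 kb only 12 of 891 (1.35%) passed 2-fold. Segment shares ran from 5.41% to 18.0%. The lowest segment median, -0.70, was that of the segment from 1806001 to 2056000, where H3K9me3 of met-2 was highest. The highest, 0.27, was that from 2806001 to 3056000, where H3K9me2 of set-25 was highest too.

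The longest run of this library, from 2997001 to 3001000, stood at 1.54 (1.48 to 1.60) and lay inside an H3K9me2 domain of set-25, where H3K9me2 was 2.54. The next, from 4516001 to 4519500, stood at 1.58 (1.48 to 1.67) with H3K9me2 of set-25 at -1.43. Those from 3204501 to 3207000, from 2436001 to 2438500 and from 2444501 to 2446500 stood at 1.49, 1.52 and 1.47, with H3K9me2 of set-25 at 0.20, -1.19 and 0.99. H3K9me3 of met-2 lay between -0.67 and 0.07 in all 5.

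The libraries were then compared between strain labels, mark by mark, each centred on its own median over all kept windows. This was done because the medians for H3K9me2 differed by -1.32 (set-25 minus met-2, log2) and those for H3K9me3 by 0.056. For H3K9me3 this cannot be taken as a comparison of strains. At the runs checked on III the ChIP labelled set-25 held 0.11 and 1.39 times the expectation. The H3K9me3 ChIP of met-2 held 0.013 and 1.58 times. Relative to the medians, H3K9me2 was at least 2-fold higher in set-25 in 4317 windows of the arm (49.6%, against 23.5% in the table as a whole). The opposite difference, met-2 higher, was found in 254 (2.92%, against 10%). The median difference was 0.98. Scaled to column totals, the balance of the shares turned, to 21.1% higher in set-25 and 30.3% higher in met-2, with a median difference of -0.34.

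In the longest blocks the direction was the same under both scalings. In all 47 H3K9me2 domains of set-25, which were chosen on the set-25 values, the difference relative to the medians ran from 2.28 to 5.79. Scaled to column totals it was 10.5-fold in the domain from 2175501, 4.01-fold in that from 3290001 and 13.5-fold in that from 2458001. Of the windows higher in met-2, 12 were among the 142 enriched there, in 11 runs, and the share in the table as a whole is not given here. The longest was the 1 kb run from 4227001 described above, and the next were single windows at 4573501 (1.31 in met-2 and -1.23 in set-25) and 582501 (1.31 and -1.38). Both of these were enriched for H3K9me3 in met-2 as well, at 2.30 and 1.52.

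For H3K9me3 the windows past 2-fold were nearly equal in number in both directions, but those also enriched were not. Relative to the medians 1904 windows (21.9%, against 30.7% in the table as a whole) were at least 2-fold higher in met-2 and 2065 (23.7%, against 18.1%) in the library labelled set-25. Of the 1904, 416 were windows without a count in the ChIP labelled set-25. Summed over 5 kb the shares were 9.43% and 4.49%. Of the 280 windows enriched in met-2, 204 were among those higher there, in 70 runs of up to 12.5 kb. Of the 855 enriched in the library labelled set-25, 728 were higher there, in 561 runs of up to 4 kb. The library with more enriched windows thus also gave more of these, and their shares in the table as a whole are not given here. The longest on the met-2 side ran from 1937001 to 1949500 (2.29 against -0.31, 6.34-fold relative to the medians), from 2019001 to 2024500 (5.67-fold) and from 3352501 to 3357500 (2.68 against 0.11, 6.17-fold). The longest of the opposite direction were the runs from 2997001, 4516001 and 3204501 given above. All directions for H3K9me3 rest on the library that goes against its label.

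At the borders of the H3K9me2 domains of set-25, the other signals showed smaller steps or none. Whether there was a step, and for H3K9me2 of met-2 also its direction, depended on the input. Each domain was set against the kept windows within 5 kb on either side that lay in no domain. H3K9me2 of met-2 was higher inside than in the flanks in 41 of 47 domains, by a median of 0.27 (quartiles 0.11 and 0.42), far below the step that defines the domains in set-25 (1.78). H3K9me3 of met-2 was higher inside in 23 of 47, with a median difference of -0.0029, and the library labelled set-25 in 32, with a median of 0.19. The inputs also differed there. Those of the H3K9me3 experiments held more counts inside in 41 domains each, by 0.65 (met-2) and 0.69 (labelled set-25) on the log2 scale, whereas those of H3K9me2 differed by 0.03 (set-25) and -0.10 (met-2). With the input of the other mark, H3K9me2 of met-2 was higher inside in 10 of 47 domains, by a median of -0.35, and H3K9me3 of met-2 in 42, by 0.59. The library labelled set-25 was then higher inside in 39, by 0.95. With the input of the other strain label H3K9me2 of met-2 was higher inside in 40, by 0.17, and without input in 39, by 0.20. Without input H3K9me3 of met-2 was higher inside in 41, by 0.61, and the library labelled set-25 in 40, by 0.98.

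At the 6 domains of H3K9me3 in met-2, the H3K9me2 signal of that strain was higher inside than in the flanks in all 6, by a median of 0.52, and in 4 of 6 with the input of the other mark, by 0.22. H3K9me2 of set-25 was higher inside in 4 of 6, by 0.27. These domains had medians of 0.59 for H3K9me2 in met-2 and 0.37 in set-25, and none passed 2-fold in met-2.

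**Figure D4:**
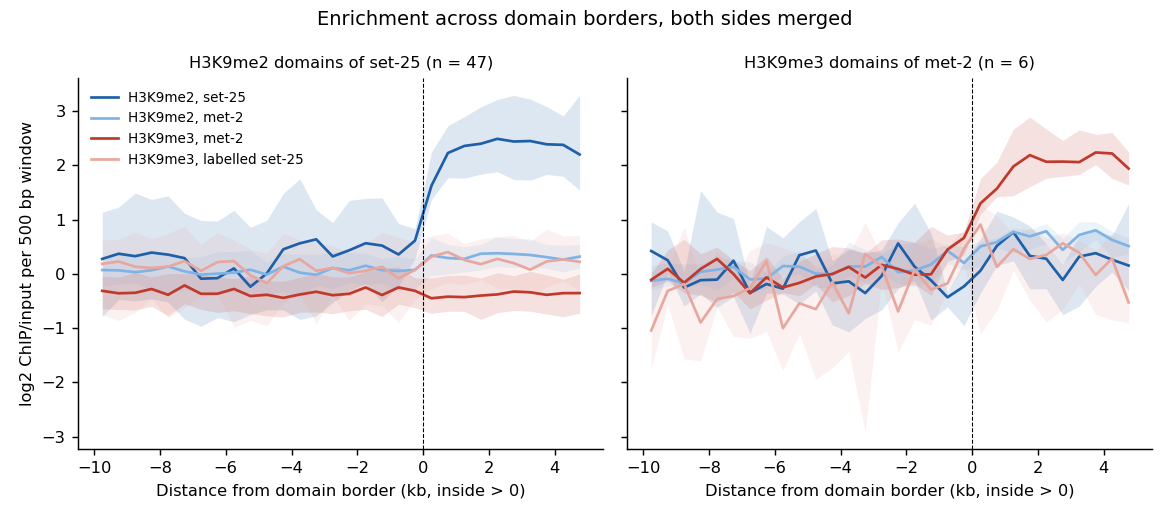
Median log2 ratio of ChIP to input per 500 bp window (lines) with quartiles (shading) by distance from a domain border in kb, both borders of each domain merged, outside left of the dashed line and inside right of it. Left, the 47 H3K9me2 domains of set-25, where H3K9me2 of met-2 is higher inside than in the flanks by a median of 0.27 with its own input. With the input of the other mark this difference is -0.35. Right, the 6 H3K9me3 domains of met-2.

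The overlap of enriched windows differed between pairs of libraries. Of the 280 windows enriched for H3K9me3 of met-2, 35.4% were also enriched for H3K9me2 of set-25, against 23.9% of the other windows. These 99 windows made up 4.69% of the H3K9me2 windows of set-25. In the table as a whole these shares were 12.8% and 5.13%, where 10.3% of all kept windows were enriched for H3K9me2 of set-25. Pearson's r between these libraries was 0.022 across the 8711 windows. Within met-2, 30 windows were enriched for both marks, 21.1% of the H3K9me2 windows and 10.7% of the H3K9me3 windows. Of the windows not enriched for H3K9me2 in met-2, 2.92% were enriched for H3K9me3. Over all 280 windows enriched for H3K9me3, met-2 had a median H3K9me2 of 0.54, against 0.082 in the other windows, and 91.1% against 58.0% lay above 0. In the table as a whole 54.8% of the H3K9me2 windows of met-2 were enriched for H3K9me3, and 17.9% of the H3K9me3 windows for H3K9me2. H3K9me2 of set-25 and of met-2 gave r = 0.30, and 65 windows were enriched in both, 45.8% of those of met-2 and 3.08% of those of set-25. In the table as a whole it was 27.4% and 3.58%. Of the windows not enriched for H3K9me2 in met-2, 23.9% were enriched for it in set-25. Under the set-25 label 274 windows were enriched for both marks, 13.0% of the H3K9me2 and 32.0% of the H3K9me3 windows, with r = 0.20. In the table as a whole it was 14.1% and 21.2%. Of the windows without H3K9me2 in set-25, 8.80% had H3K9me3 in the library labelled set-25. These windows share libraries, depth and inputs. The inputs of a mark resembled each other across strain labels on the arm (Spearman's rho 0.78 for H3K9me2 and 0.96 for H3K9me3). They did not across marks (-0.32 to 0.051), so a mark and its input cannot be told apart in comparisons between marks.

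The arm was set beside other parts of its own chromosome and the left outer parts of the other autosomes. The tip of II left of the arm (602 windows) had 2.82% of windows enriched for H3K9me2 in set-25 and no domain. The part between the arm and the outer 25% on the right had 0.68% and no domain. The outer 25% on the right had 11.4% and 1 domain, against 24.2% and 47 on the left arm. Per Mb of kept windows the left arm held 10.8 such domains. The outer 25% on the left of I had 8.24, of III 26.9, of IV 5.53 and of V 2.66, which puts the arm between III and I. By the share of enriched windows, 28.3% for I, 47.3% for III, 21.5% for IV and 11.3% for V, it stood between I and IV. These parts are not cut alike. The arm leaves out the tip of II and reaches further in than the outer 25%, while the parts of the other autosomes include their tips. Both ranks depend on these cuts. For H3K9me3 of met-2 the part of II next to the arm had 7.42% and 26 domains, against 3.21% and 6 on the arm. The left outer parts of the other autosomes had 1.01% to 2.93%, and the outer right of II 2.73%. H3K9me2 of met-2 varied least, at 0.95% to 1.71% over these 8 parts. The library labelled set-25 had 7.93% to 12.6% on the outer parts, 6.64% on the tip of II and 3.91% on the part of II next to the arm. With 1 library per group, none of these differences could be tested.

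**Figure D5:**
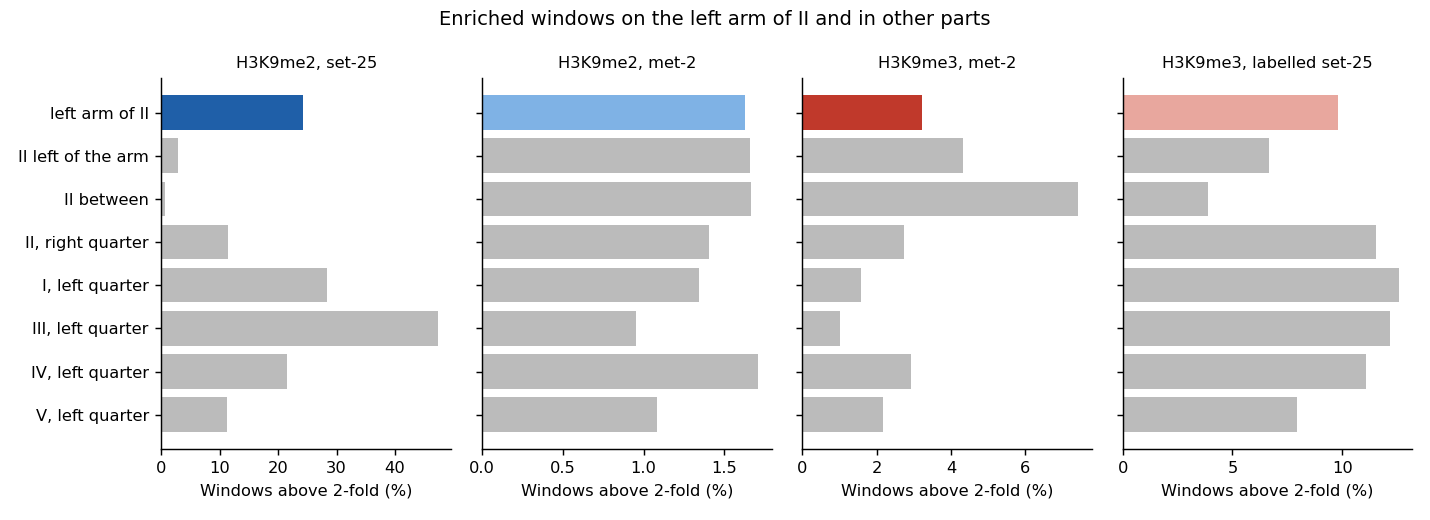
Share of enriched 500 bp windows, in percent, on the left arm of II (coloured) and in 7 other parts of the autosomes (grey), with 1 panel and 1 scale per library. H3K9me2 of set-25 stands at 24.2% on the arm, 0.68% in the adjoining part of II and 11.4% at its right end.

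Windows with high input, which collapsed repeats can give, were few. On the arm 75 kept windows (0.86%, against 0.76% in the table as a whole) had a summed input over 2 times the median. Of these, 46.7% were enriched for H3K9me2 in set-25, 6.67% in met-2, none for H3K9me3 in met-2 and 1.33% in the library labelled set-25. Without them the share of windows enriched for H3K9me2 in set-25 was 24.0% and the number of domains 43.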

How the data were processed

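Per the labels' protocols, early embryos were fixed with 2% formalin for 30 min and their chromatin was sonicated. The authors deposited raw counts per 500 bp window in 8 columns, 1 per group, assigned by column name. Neither the aligner and build nor the treatment of duplicates and of reads with several matches is given in the sources used here. An incomplete final line (of 198088) was dropped. Counts were scaled to column totals, with a pseudocount of 0.1 CPM. Region values came from summed counts without pseudocount. Windows under 20 counts in any input were left out (435 on the arm, 4.76%). Thresholds of size replace tests, as each group has 1 column. The members, domains, named regions (the longest runs per library and direction, and the highest and lowest segments) and alternatives were chosen with earlier results of these data known. Computations (Python 3.11.15, pandas 2.3.3, scipy 1.17.1) were tested on simulated data. Alternatives varied pseudocount, scaling, floor, threshold, input, window size and the definition of a domain. No genome sequence was used here.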

Additional observations from a re-analysis of the deposited data

Results flagged for a closer look

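Of the windows left out for low input, 14 stretches of at least 3 kb lay on the arm. In 11 of them at least 1 of the 4 ChIP libraries exceeded its input more than 2-fold at the lower 95% counting limit. The stretches were picked for low input counts, which favours high ratios to that input, and the limit does not cover this choice. The same count is not given for the 6947 windows left out in the whole table, so the 11 are not read as particular to the arm. The 6 values below exceeded 4-fold at that limit and are given because these windows enter no result of the report. This choice was made after the data were seen.

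H3K9me2 of set-25 stood at 5.89 (4.73 to 7.35) from 694501 to 699000, with 156 ChIP and 6 input counts. It stood at 5.68 (5.08 to 6.36) from 3465001 to 3469500, with 520 and 23 counts. In both stretches the H3K9me3 input of met-2 was far from empty, with 1789 and 3432 counts, whereas the H3K9me2 input of met-2 held 1 and 10. H3K9me2 of set-25 also stood at 2.72 (2.32 to 3.14) from 852001 to 856000, at 3.63 (2.59 to 4.84) from 1458501 to 1462000 and at 2.81 (2.35 to 3.28) from 2002001 to 2010000. H3K9me3 of met-2 stood at 3.20 (2.35 to 4.15) from 3942001 to 3946500, with 66 ChIP and 14 input counts. A log2 ratio over so few input counts depends on which input is used.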

How the results depend on the processing

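No paired analysis was possible because the columns carry no replicate and each group has 1 column, for which reason no replicate could be left out either. Of 112 recomputed shares and domain counts, 71 stayed within 1.5 times the reported value. These include all of those without a count floor, with totals that leave out the top 1% of windows by coverage, without over-covered windows and with runs that may bridge 1 window.

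The following moved further. At a threshold of 2, the enriched shares were 11.4% (H3K9me2, set-25), 0% (H3K9me2, met-2), 0.82% (H3K9me3, met-2) and 0.46% (H3K9me3, labelled set-25), with 13 H3K9me2 and 0 H3K9me3 domains. The differences at that threshold were 26.3% and 0.20% for H3K9me2 (higher in set-25, in met-2) and 10.6% and 2.26% for H3K9me3 (higher in met-2, in the library labelled set-25). At 0.5, enrichment was 16.7% for H3K9me2 in met-2, 7.74% for H3K9me3 in met-2 and 27.3% in the library labelled set-25, with 73 H3K9me2 domains, and 9.18% of windows were higher in met-2 for H3K9me2 and 40.7% in the library labelled set-25 for H3K9me3. With centred libraries, the shares were 52.1% (H3K9me2, set-25), 5.74% (H3K9me3, met-2) and 18.9% (labelled set-25), with 123 H3K9me2 domains, while totals made the H3K9me2 differences 21.1% and 30.3%. Taking the other mark's input, enrichment was 5.48% (H3K9me2, met-2), 14.3% (H3K9me3, met-2) and 25.2% (labelled set-25), H3K9me3 was higher in the library labelled set-25 in 14.2%, and 30 H3K9me2 domains were left. With the input of the other strain label, H3K9me2 of met-2 had 0.14% and H3K9me3 was higher in the library labelled set-25 in 15.2%. Without input, an alternative added after the data were seen, the shares were 0.31% (H3K9me2, met-2), 5.84% (H3K9me3, met-2) and 20.9% (labelled set-25). A pseudocount of 0.5 gave 0.78% for H3K9me2 of met-2 and 1.42% of windows higher in met-2. Over 5 kb, enrichment was 0% for H3K9me2 of met-2 and 1.35% for the library labelled set-25, H3K9me2 was higher in met-2 in 0.34%, and H3K9me3 differed in 9.43% (met-2 higher) and 4.49%. Domains of at least 6 windows numbered 95 (H3K9me2) and 11 (H3K9me3). The runs of H3K9me2 in met-2 from 3799001, 3195001, 2724001 and 4227001 turned negative with the input of the other mark (-1.13, -1.26, -1.61 and -0.78). The cause was not tested.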
